A study of Mus musculus with 3 samples.

Results

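The genes described here are 10 mouse genes of the NRF2 pathway and the metallothionein family: the regulators Nfe2l2 and Keap1, the NRF2 target genes Nqo1, Hmox1, Gclc, Gclm, Txnrd1 and Srxn1, and the metallothionein genes Mt1 and Mt2. They were chosen by name and matched by gene symbol to the probes of the authors' processed table, in which 9 of the 10 had a named probe, among 9678 genes with a named probe in all. Each gene is represented by its brightest probe, the one with the highest mean in that table. RNA came from 3 biological replicates of OS25, an embryonic stem (ES) cell line of the mouse, each on 1 Illumina BeadArray, and the labels put all 3 in a single group of undifferentiated ES cells. Their medium held hygromycin at 0.1 mg/mL, the reducing agent β-mercaptoethanol at 0.1 mM, leukaemia inhibitory factor (LIF) at 1000 units/mL and 10% serum from foetal calves. With 1 group and no treatment there is no contrast to test, so the results are which of these genes were above background and how their levels differed between the replicate arrays, beside the same measures over all genes.

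NRF2, the protein of Nfe2l2, is a transcription factor that KEAP1 binds and hands to a CUL3 ubiquitin ligase for degradation. When oxidants or electrophiles modify KEAP1, NRF2 accumulates, pairs with a small MAF protein and binds antioxidant response elements (AREs) at genes for glutathione synthesis, thioredoxin recycling, quinone reduction and heme breakdown, and the heme-sensitive repressor BACH1 competes for the same elements. Metallothioneins are small cysteine-rich proteins that bind zinc and copper, and their genes are switched on by the zinc-sensing factor MTF1 through metal response elements (MREs).

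The start-site windows of 4 of the genes are shown, each with matches to short cores of the elements named above. They are those of the NRF2 target genes Gclm and Srxn1 and of the pair of metallothionein genes. Nfe2l2 and 1 window of Txnrd1 also held an ARE core match and are not shown. Gclm and Srxn1 were lowest on replicate 1, as were Nqo1, without an ARE core match, and Hmox1, without a window. Whether the core is linked to the levels was not tested. Each window runs from 250 bases before to 50 bases after a RefSeq transcript start (GRCm38.p6), 5′ to 3′ on the gene's strand. Capitals mark the ARE core TGACNNNGC on either strand in Gclm (chr3:122245307-122245606, plus strand) and Srxn1 (chr2:152105274-152105573, plus strand), and the MRE core TGCACNC or TGCGCNC on either strand in Mt1 (chr8:94178839-94179138, plus strand) and Mt2 (chr8:94172368-94172667, plus strand).
Gclm: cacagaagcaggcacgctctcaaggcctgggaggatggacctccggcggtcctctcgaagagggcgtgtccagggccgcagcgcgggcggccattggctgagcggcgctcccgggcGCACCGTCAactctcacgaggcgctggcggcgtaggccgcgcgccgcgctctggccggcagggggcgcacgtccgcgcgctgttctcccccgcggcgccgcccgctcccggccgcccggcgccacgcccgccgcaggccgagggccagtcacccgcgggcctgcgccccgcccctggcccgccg
Srxn1: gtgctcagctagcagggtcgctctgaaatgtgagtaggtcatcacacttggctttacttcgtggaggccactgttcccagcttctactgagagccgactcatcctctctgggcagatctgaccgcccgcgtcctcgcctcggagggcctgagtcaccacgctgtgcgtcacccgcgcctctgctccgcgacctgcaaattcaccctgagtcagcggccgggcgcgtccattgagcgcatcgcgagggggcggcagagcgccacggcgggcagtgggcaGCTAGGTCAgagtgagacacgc
Mt1: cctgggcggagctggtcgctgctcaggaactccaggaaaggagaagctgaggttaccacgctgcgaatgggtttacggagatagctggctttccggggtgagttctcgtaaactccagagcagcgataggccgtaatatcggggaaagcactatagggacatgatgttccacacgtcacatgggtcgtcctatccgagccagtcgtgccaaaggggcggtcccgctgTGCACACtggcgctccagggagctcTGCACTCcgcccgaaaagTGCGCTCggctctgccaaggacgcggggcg
Mt2: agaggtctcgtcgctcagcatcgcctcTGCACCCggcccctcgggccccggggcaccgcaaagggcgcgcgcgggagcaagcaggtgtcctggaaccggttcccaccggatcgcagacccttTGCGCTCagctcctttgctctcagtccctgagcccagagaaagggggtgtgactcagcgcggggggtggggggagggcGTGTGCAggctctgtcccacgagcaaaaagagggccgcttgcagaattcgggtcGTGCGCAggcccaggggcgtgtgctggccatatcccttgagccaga

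In these letters the match to TGACNNNGC in Gclm began 134 bases before the start and that in Srxn1 28 bases after it, both on the opposite strand. No other form of the ARE core was searched. Near matches are therefore not marked or counted, such as TGAGTCAGC before the start in Srxn1. Of the 10 genes, 8 had 1 or more windows in the RefSeq table, 10 windows in all, and Hmox1 and Gclc had none. The ARE core also matched in Nfe2l2, in 1 of 3 windows of Txnrd1 and in Mt2, where it began 79 bases before the start. Over all 32851 windows of the same length, 12.4% held the ARE core. The MRE core matched 3 times in Mt1 and 4 times in Mt2, and 1.97% of all windows held 3 or more matches. Gclm also had 3 MRE core matches, of which 1 overlapped its ARE core, and Srxn1 had 1, where 25.7% of all windows held 1 or more. Keap1 and Nqo1 had neither core in these windows, and Nqo1 held the TATA box TATAAA 29 bases before its start, a motif found in 13.6% of windows. A match is a description of the letters and not evidence that a factor was bound.

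A probe was called detected on an array where its detection p-value, which sets it against the negative control beads of that array, was under 0.01, and a gene was called detected where a probe of it met this on all 3 arrays. By that rule 8 of the 9 measured genes passed, against 82.2% of all 9678. The metallothionein, glutathione, quinone and heme genes and both regulators were thus measured on every array, and the exceptions lay in Txnrd1 and Gclc. The share over all genes is high because the authors' table kept mainly probes above background on some array, so a count near it says nothing particular about these 10 genes.

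The label of the cells was set against marker genes. Of 20 naive ES cell markers, 7 had a named probe and 4 of these (57.1%) were detected (Klf2, Klf4, Klf5 and Tbx3), against 82.2% of all genes. Zfp42 and Fbxo15 were above background on replicate 1 alone, and Tfcp2l1 on no array. Pou5f1, Nanog, Sox2 and Esrrb had no named probe. Of 20 fibroblast markers, 17 had a named probe and 15 of these (88.2%) were detected, near the 82.2% of all genes, with Col1a1 at 11.95, 11.99 and 11.76 on replicates 1, 2 and 3. None of the 27527 probes outside the authors' table had a detection p under 0.01 on any array. The defining ES cell regulators thus had no detected probe, or only one that was not assigned to them. Which of these held is not known here, and the label is used as a label only. Replicate 1 stood apart from the others: over the levels of 7955 detected genes, which share the 3 arrays and are no replicates, Pearson's r of replicate 1 with replicate 2 was 0.944 and with replicate 3 it was 0.946, and replicates 2 and 3 had an r of 0.991. Ranges and counts that rest on replicate 1 are also given without it. Levels are normalised log2 intensities, and levels of different probes are not compared, because probes differ in brightness for reasons other than transcript number. In bulk RNA, fewer cells of a type and less RNA per cell cannot be told apart.

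The regulators were detected and close to level across the arrays. Nfe2l2 was at 6.44, 6.38 and 6.26 on replicates 1, 2 and 3 (6.36 ± 0.09, SD, n = 3), with unprocessed intensities of 162, 137 and 118 where probes began to be called detected at 99.2, 96.6 and 92.6 on the same arrays. Its signal was therefore above background but dim on each array. Keap1 was at 9.04, 8.96 and 9.17 (9.06 ± 0.10, n = 3). The ranges of these genes over the arrays, 0.18 for Nfe2l2 and 0.20 for Keap1, were below the median range of all detected genes, 0.41. With no normalisation between arrays they were 0.69 and 0.40, where the median of all detected genes moved from 0.26 on replicate 1 to −0.22 on replicate 3, and without replicate 3 they were 0.057 and 0.078. Since NRF2 is controlled largely through the stability of the protein, the transcript levels of its gene do not report its activity.

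Keap1 was read by 4 probes, all detected on every array. The probe with the highest mean differed by −0.02 between replicate 1 and the mean of replicates 2 and 3, and the next differed by 0.32, at 9.13, 8.82 and 8.81. The other probes differed by 0.04 and −0.14. The probes of Keap1 thus spread over 0.46 in this difference, and none of them spanned 2-fold between arrays.

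Among the members, the target genes other than Txnrd1 and the unmatched Gclc shared a pattern in their brightest probes. Nqo1, Hmox1, Gclm and Srxn1 were each lowest on replicate 1, by 0.63 to 1.04 log2 units below the mean of replicates 2 and 3, while Nfe2l2, Keap1, Mt1 and Mt2 differed by at most 0.12 in either direction. Of 8 detected members, 4 were lower on replicate 1 by over 0.5, a threshold chosen after the values were seen, against 16% of all detected genes. None was higher by over 0.5, against 14.2%. The 3 probes of Srxn1 ran from −1.04 to −0.04 in this difference. Of 68 other detected pathway genes, 9 were lower on replicate 1 by over 0.5 (13.2%) and 6 higher (8.82%). Because the members were chosen with results of these arrays known, the counts describe these libraries and carry no test.

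Nqo1 encodes a quinone reductase that uses NADH or NADPH to reduce quinones. It was at 8.16, 8.66 and 8.91 on replicates 1, 2 and 3 (8.58 ± 0.38, n = 3). The difference between replicate 1 and the mean of the others was −0.63, and replicate 2 minus replicate 3 was −0.24.

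Hmox1 encodes heme oxygenase 1, which opens heme to biliverdin, iron and carbon monoxide. Its levels were 6.90, 7.83 and 7.75 (7.49 ± 0.52, n = 3), with unprocessed intensities of 202, 276 and 233. Replicate 1 was the low array, at −0.89 against the mean of the others, whereas replicates 2 and 3 were 0.09 apart. The constitutive isoform gene Hmox2, of the heme and iron list, was at 9.21, 8.97 and 9.12 and did not share the low value on replicate 1.

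Gclm encodes the modifier subunit of glutamate-cysteine ligase, which catalyses the rate-limiting step of glutathione synthesis. It was at 7.99, 8.71 and 9.01 (8.57 ± 0.53, n = 3), a range of 1.02 that just passed 2-fold. Replicate 1 stood at −0.87 against the mean of the others, and replicate 2 minus replicate 3 was −0.30. Gclc, the catalytic subunit gene, had no named probe, and a gene without a probe cannot be told from one whose probe is unnamed or was at background. The 2 subunits could therefore not be set side by side.

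Srxn1 encodes sulfiredoxin, which restores peroxiredoxins that have been overoxidised at their active cysteine. Its highest-mean probe was at 8.34, 9.37 and 9.40 (9.04 ± 0.60, n = 3), and its range of 1.05 was the widest of the 8 detected members. Replicate 2 minus replicate 3 was −0.03, so the range came from replicate 1, at −1.04 against their mean.

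The 3 probes of Srxn1 did not show this to the same extent. The second probe was at 7.07, 7.59 and 7.68, a difference of −0.57 for replicate 1, and the third at 6.60, 6.50 and 6.78, a difference of −0.04. All 3 were detected on every array. Between its probes Srxn1 thus spread over 1.00 log2 units in this difference, where the median spread among 2856 genes with at least 2 detected probes was 0.23 and 17.5% of them spread over more than 0.5. With the mean of its probes in place of the brightest one, the difference of Srxn1 was −0.55.

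**Figure D1:**
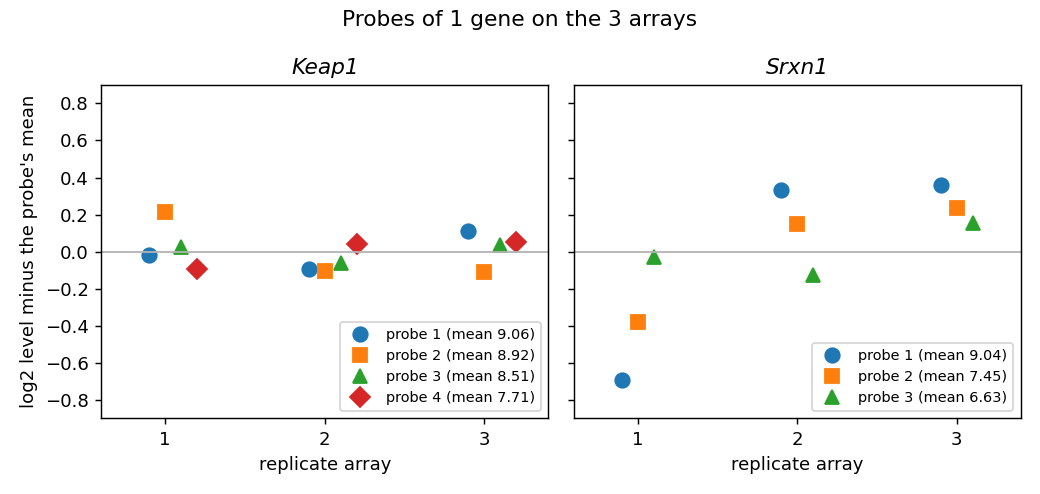
Normalised log2 level of each probe of Keap1 (4 probes) and Srxn1 (3 probes) on the 3 replicate arrays, less the probe's own mean over arrays; each point is 1 array, and points are offset sideways by probe. The brightest Srxn1 probe had a difference of −1.04 between replicate 1 and the mean of the others and the dimmest −0.04, while the Keap1 probes ran from −0.14 to 0.32.

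Txnrd1 encodes the cytosolic thioredoxin reductase, a selenoprotein that keeps thioredoxin reduced. Its detection p-values were 0.00855, 0.0107 and 0.0235 on replicates 1, 2 and 3, so it was above background on replicate 1 alone and close to the threshold on the other arrays. Its unprocessed intensities were 101, 95.7 and 87.4. The normalised values, 5.29, 5.31 and 5.26, are near background and have no order. The probe is assigned to 1 of the gene's 4 RefSeq transcripts, and whether it reads the others is not known here. At a detection p under 0.05 Txnrd1 counted as detected on all 3 arrays.

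The metallothionein genes lie next to each other on chromosome 8 with no annotated gene between them. Mt1 was at 13.14, 13.35 and 12.99 (13.16 ± 0.18, n = 3), with unprocessed intensities of 9871, 10336 and 7512. Mt2 was at 6.15, 5.98 and 6.45 (6.19 ± 0.24, n = 3), with unprocessed intensities of 142, 118 and 126. The difference in brightness between the probes is not a ratio of the transcripts. In normalised levels the genes did not follow each other between arrays: Mt1 was highest on replicate 2 and lowest on replicate 3, and Mt2 the reverse. The order of Mt2 rests on a dim probe and on the normalisation, as its unprocessed intensity was highest on replicate 1. Both ranges, 0.35 for Mt1 and 0.47 for Mt2, lay near the median of all detected genes, that of Mt2 being 0.25 in the authors' processed values and 0.18 without replicate 3, and neither gene shared the low value of the 4 targets on replicate 1, at −0.03 and −0.06.

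**Figure D2:**
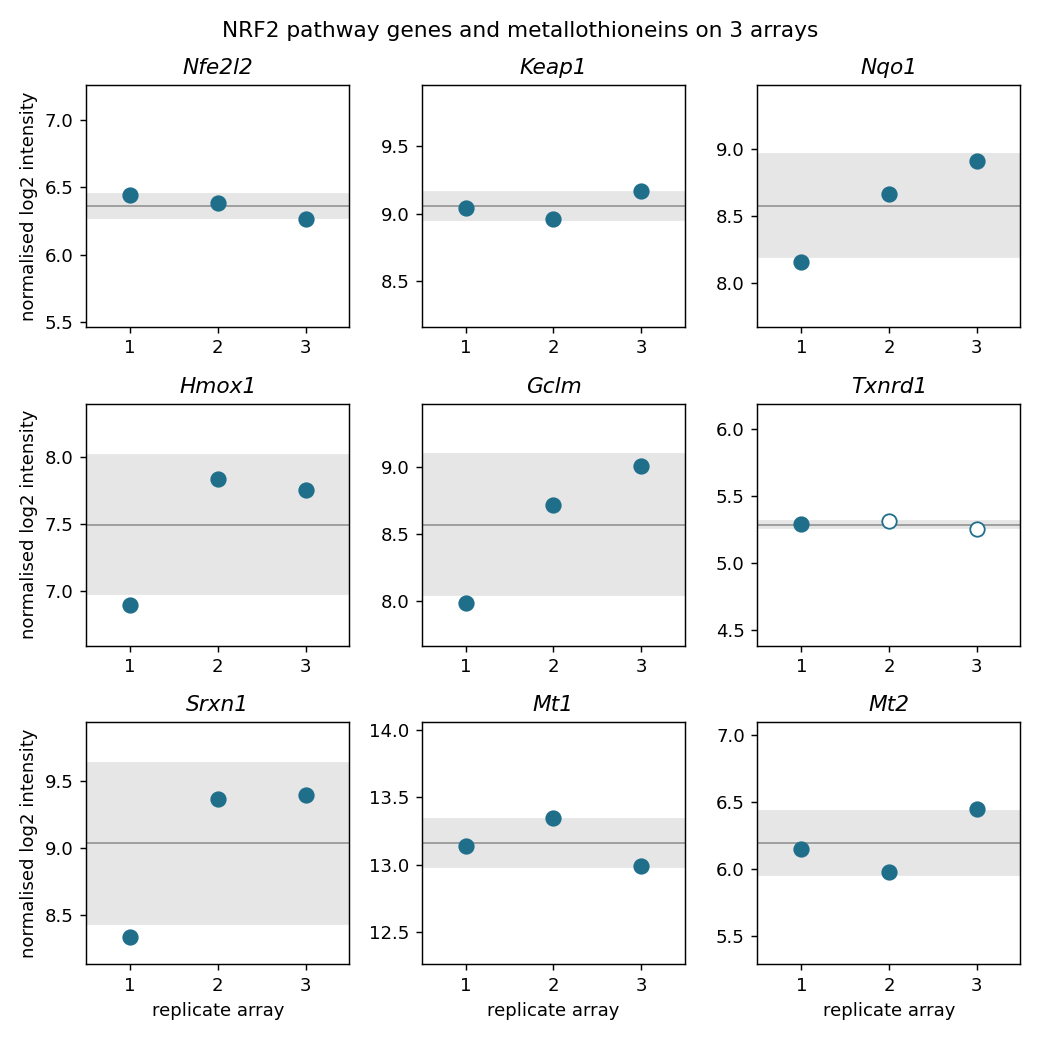
Normalised log2 intensity of the 9 genes with a named probe on replicates 1, 2 and 3; filled points are arrays with a detection p under 0.01 and open points are not, the line is the mean and the grey band ± 1 SD over 3 arrays. Every panel spans the same 1.8 log2 units. Nqo1, Hmox1, Gclm and Srxn1 have their low point on replicate 1, whereas the other 5 panels do not.

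Over the 8 detected members the median range between arrays was 0.61 log2 units (0.41 over all detected genes), and without replicate 1 the median gap between the other arrays was 0.22 (0.14 over all detected genes). On all 3 arrays 2 of them, Gclm and Srxn1, spanned over 2-fold, against 10.1% of all detected genes. Hmox1 lay just below that line at 0.94. Without replicate 1, none of the 8 had replicates 2 and 3 more than 0.5 apart, against 3.9% of all detected genes, and the widest such gap was that of Mt2 (replicate 2 minus replicate 3 of −0.47). Replicate 1 lay farthest from the middle value in 4 of the 8, against 63.7% of all detected genes, so standing apart on replicate 1 was common among all genes. It was the lowest array in 4 of the 8 members, Nqo1, Hmox1, Gclm and Srxn1, against 43.4% of all detected genes, and the highest in 1, Nfe2l2, against 43.3%. It was both lowest and farthest in 4, against 32%. The median difference of the 8 members on replicate 1 was −0.34, where that of all detected genes was −0.0028. That median falls in a gap and describes no member. Nqo1, Hmox1, Gclm and Srxn1 lay at −0.63 to −1.04, and the other 4 members between −0.06 and 0.12.

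**Figure D3:**
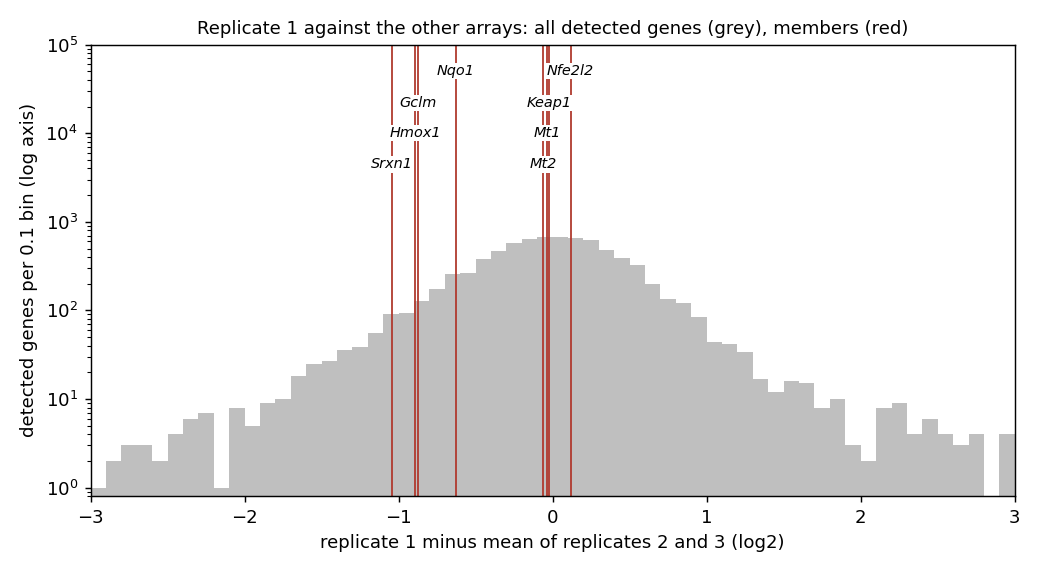
Distribution over detected genes of replicate 1 minus the mean of replicates 2 and 3 in log2 units (grey bars, count per bin on a log axis), with the 8 detected members as red lines. 7938 of the genes lie within the plotted range and 17 outside it; Srxn1, Hmox1, Gclm and Nqo1 lie at −1.04, −0.89, −0.87 and −0.63, and the other 4 members between −0.06 and 0.12.

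By the rule of most similar levels, 5 detected genes came nearest to Srxn1 among 7947, measured as the Euclidean distance between levels centred on their mean over 3 arrays. They were Acot7 (10.92, 11.96 and 11.99), Lxn (11.22, 12.25 and 12.26), Cltb (6.76, 7.79 and 7.80), Ccny (7.01, 8.05 and 8.07) and Ap4s1 (7.23, 8.23 and 8.27), at distances of 0.0072 to 0.017. With 3 arrays, such likeness says only that these genes had the same low value on replicate 1.

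Other genes of the pathway were read from 8 lists of 90 genes, of which 73 had a named probe and 68 of these (93.2%) were detected, against 82.2% of all genes. Their median range was 0.32, and without replicate 1 their median gap was 0.11. Of the 68, 8 spanned over 2-fold (11.8%, against 10.1% of all detected genes), and 1 did without replicate 1. On replicate 1, 9 were lower than the mean of the others by over 0.5 (13.2%, against 16%), 6 were higher (8.82%, against 14.2%) and 53 lay within 0.5, with a median difference of 0.02. These shares lie near or below those of all genes, apart from detection.

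Among the NRF2 regulators and partners, 9 of 10 measured genes were detected. Cul3, the scaffold of the ligase that KEAP1 serves, was at 10.89, 11.40 and 11.53, and its RING partner Rbx1 at 11.90, 11.55 and 11.42. Bach1 was the gene of this list that spanned over 2-fold, at 7.60, 7.11 and 6.29, highest on replicate 1. A link between its level and those of the 4 targets was not tested. The small MAF gene Maff was not above background on replicate 1 (5.12, detection p of 0.0192) and was on the other arrays. Mafk and Crebbp had no named probe.

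Of the glutathione genes, 13 of 14 with a named probe were detected, and those that spanned over 2-fold went in different directions. Glutathione synthetase, Gss, was at 7.35, 8.42 and 8.32, low on replicate 1. The glutathione transferase genes Gsta4 (8.19, 7.14 and 7.11) and Mgst1 (10.09, 9.22 and 8.92) were high on replicate 1. The peroxidase gene Gpx1 was at 12.54, 12.77 and 12.80. Slc7a11, the cystine importer that supplies glutathione synthesis, was not detected on all 3 arrays (detection p of 0.134, 0.00855 and 0.0374).

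The thioredoxin and peroxiredoxin list was detected at 11 of 11 genes with a named probe. Txn1 was at 8.60, 8.18 and 8.22, and the mitochondrial Txn2 at 7.39, 7.38 and 7.33. Txnip, whose product binds thioredoxin, was at 10.93, 10.48 and 9.40, and it was the pathway gene in which replicates 2 and 3 were over 2-fold apart. Sesn2, a sestrin gene that is also a p53 target, was at 5.37, 6.53 and 6.18.

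Of the quinone, carbonyl and drug metabolism genes, 7 of 9 with a named probe were detected. The epoxide hydrolase gene Ephx1 had the widest range of the detected pathway genes, at 9.24, 11.24 and 10.69, lowest on replicate 1. The quinone reductase gene Nqo2 was at 8.57, 8.86 and 8.77, and the carbonyl reductase gene Cbr1 at 9.14, 8.45 and 8.44. Aldh1a1 was not above background on replicate 1 and was on the others (4.98, 6.26 and 5.99), and the brighter probe of Ces2g was at background on all 3 arrays. Of the NADPH-producing enzymes 4 of 4 measured genes were detected, including Me1 (7.15, 7.35 and 7.30) and Idh1 (10.11, 9.87 and 9.77), and none spanned 2-fold.

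In the heme and iron list 11 of 12 genes were detected and none of these spanned 2-fold. The biliverdin reductase gene Blvra was at 11.15, 10.88 and 11.05. Slc40a1, which encodes the iron exporter ferroportin, was at 9.51 on replicate 1 and not above background on replicates 2 (5.19, detection p of 0.0224) and 3 (5.35, detection p of 0.0150), so its gap has only a lower bound. It lay opposite to Hmox1, another iron-related NRF2 target, on replicate 1.

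The superoxide and peroxide genes were detected at 5 of 5, with Sod1 at 12.30, 12.23 and 12.16 and Sod2 at 10.75, 10.83 and 10.93. The zinc and copper genes were detected at 8 of 8. Mtf1, the factor that acts on the metallothionein genes, was at 8.24, 8.52 and 8.73, and the zinc exporter gene Slc30a1 was at 5.94 ± 0.06 (n = 3). The zinc importer gene Slc39a6 was the member of this list that spanned over 2-fold, at 9.53, 10.61 and 10.56. Mt3 and Mt4, the other metallothionein genes, had no named probe.

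Marker lists are given beside these values, and their part in the pattern of the 4 targets was not tested. All 7 detected p53 targets were lower on replicate 1 by over 0.5, with Cdkn1a at 8.06, 11.95 and 11.15 and Mdm2 at 10.29, 12.25 and 11.71. Their summed linear level was 3105, 18345 and 11562 on the arrays in order. All 12 detected interferon-inducible genes were higher on replicate 1 than the mean of the others, with Igtp at 12.55, 7.64 and 10.98. Their summed level was 44697, 7283 and 21310. For this list replicate 2 was the array that stood apart: all 12 genes were lowest there, and it lay farthest from the middle value in 10. Of 15 detected fibroblast genes 6 were lower on replicate 1 by over 0.5 and 4 higher, with a summed level of 29028, 47506 and 42024. Dcn was left out of these by the detection rule, with a detection p of 0.0128 on replicate 3, and it stood at 12.28, 6.77 and 5.42. With every named fibroblast gene kept, 9 of 17 were higher on replicate 1 than the mean of the others and 8 lower, and the summed level was 34050, 47664 and 42105. The naive ES cell genes had no common direction: Klf4 (6.48, 8.08 and 7.86) and Klf5 (8.59, 9.92 and 9.70) were lower on replicate 1, and the other 5 of the 7 named genes were higher than the mean of the others. The 4 detected ones summed to 997, 1650 and 1534, a sum that Klf5 and Klf4 carry. Cd14 (6.68, 6.92 and 6.99) was the only one of 12 macrophage and blood markers with a named probe.

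**Figure D4:**
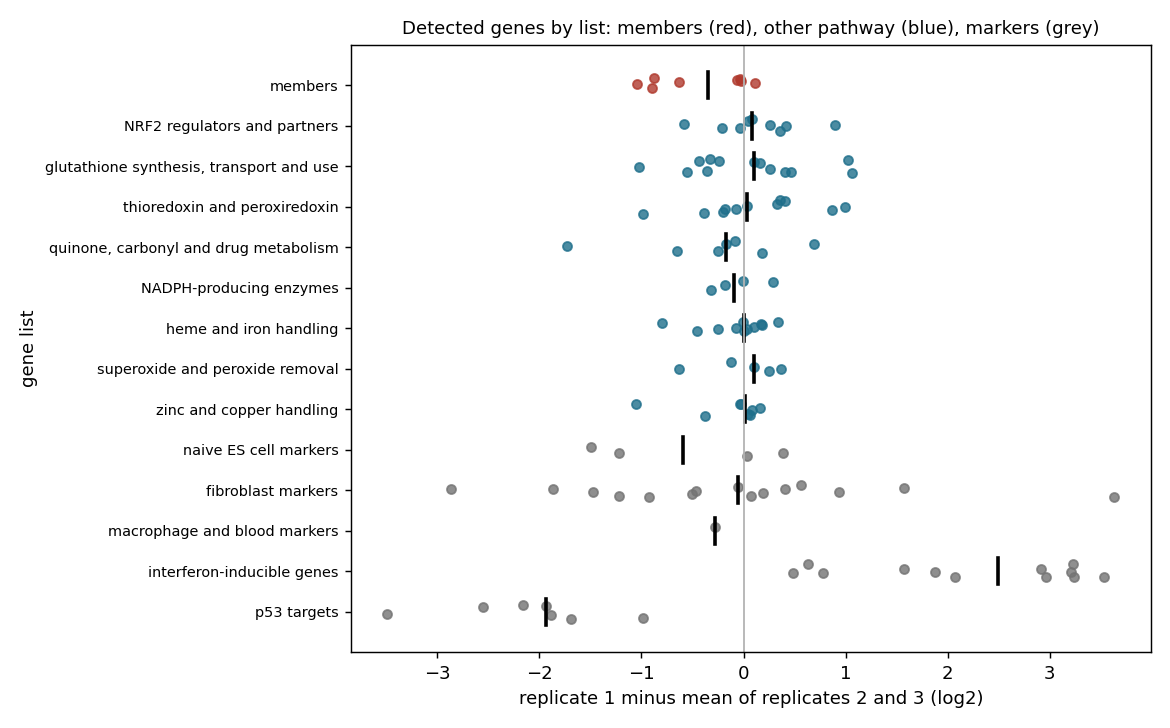
Replicate 1 minus the mean of replicates 2 and 3, in log2 units, for the detected genes of each list; each point is 1 gene, placed with vertical jitter, and the black bar is the list's median. The members have a median of −0.34 and the 8 other pathway lists lie nearer to 0, while the p53 targets (−1.93) and interferon-inducible genes (2.49) lie far to either side.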

How the data were processed

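Expression was read from 3 Illumina BeadArrays of 1 labelled group. The deposited unprocessed table gives, per the file headers, a linear intensity and a detection p-value for each of 45281 probes. The authors' processed table holds log2 intensities of 17754 probes; its columns agree after sorting to within 0.00036, as quantile normalisation gives. The authors used limma, per the submitters' processing notes, with version and probe filter not given in the sources used here. Of these probes, 15045 had 1 gene, 5 had several and 2704 had none; genes were named by Entrez identifier through RefSeq.

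Levels came from the unprocessed table with the neqc function of limma 3.58.1 under R 4.3.3, which applied a normexp background correction informed by detection p-values, added 16 and then quantile-normalised the log2 values. Python 3.11.15, numpy 2.4.6, pandas 2.3.3 and matplotlib 3.10.9 did the rest. Detection, ranges and motif search were tested on simulated data. The members, lists, thresholds and rules were chosen with earlier results of these data known. Named were all members and, per pathway list, the first 2 detected genes, those spanning over 2-fold and up to 5 undetected ones; per marker list, the first 4 detected genes could be named. Other genes named were chosen after their values were seen. The 3 arrays limit the precision, and the labels call them biological replicates without saying how the cultures were separated. Alternatives were other detection rules, normalisations, offsets and probe rules, and each replicate left out.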

Additional observations from a re-analysis of the deposited data

How the results depend on the processing

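The count of 8 detected members was 8 or 9 under every detection rule tried and with any replicate left out, and the count of 68 detected pathway genes ran from 59 to 72. The count of 2 members spanning over 2-fold depended on the processing: it was 0 with quantile normalisation alone, with no normalisation between arrays, with the authors' processed values and with an offset of 50, and 1 with the mean of a gene's probes. Leaving out replicates it ran from 0 (without replicate 1) to 2, with 1 without replicate 3. For the pathway genes the count of 8 was 4 with quantile normalisation alone and with the authors' values, 5 with an offset of 50, and 1 (without replicate 1) to 6 with a replicate left out. Over all detected genes the count of 806 ran from 37 without replicate 1 to 1445 with no normalisation between arrays. The cause of these changes was not tested.

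Nqo1, Hmox1, Gclm and Srxn1 were also lower on replicate 1 by over 0.5 with quantile normalisation alone and with the authors' processed values. The same held with an offset of 50 and with the mean of a gene's probes. These alternatives were chosen after the data were seen. Keeping dim probes could not change this result, because all 4 genes were already detected. With no normalisation between arrays the count was 1, when replicate 1 stood 0.39 above the others over all detected genes, and 4 relative to that shift. Replicate 1 was farthest from the middle value in 4 to 6 members. No paired analysis was possible because the labels give 1 group. Ranges of single members under the alternatives ran from 0.057 to 0.69 for Nfe2l2, 0.078 to 0.40 for Keap1, 0.23 to 0.75 for Nqo1, 0.085 to 0.94 for Hmox1, 0.30 to 1.02 for Gclm, 0.028 to 1.05 for Srxn1, 0.14 to 0.46 for Mt1, 0.18 to 0.50 for Mt2 and 0.013 to 0.36 for Txnrd1, with the low ends of Nqo1 from no normalisation between arrays and of Hmox1, Gclm and Srxn1 without replicate 1. Dim probes limit Nfe2l2, Mt2 and Txnrd1.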
